A study of Mus musculus with 4 samples.

Results

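The genes of the mitochondrial ribosomal proteins were taken as all rows of the expression table whose mouse symbol is Mrpl or Mrps followed by a number and at most 1 letter. This rule found 78 of 24026 genes, 49 named Mrpl after the large subunit and 29 named Mrps after the small subunit. RNAseq was done in 4 libraries of untreated F123-ESCs, a male hybrid mouse embryonic stem cell line of genotype S129/CAST whose maternal chromosomes are S129 and whose paternal chromosomes are CAST. The cells were grown on inactivated embryonic fibroblasts with LIF, passaged without feeders at least 2 times and harvested about 48 h later. The study used this line to learn whether 1 or both alleles of a region contact the nucleolus, and its RNAseq to compare expression of genes in regions of either kind. All 4 libraries are of 1 line in 1 condition, from 1 direction of the cross. Strain and parent of origin therefore cannot be told apart. The labels do not say that the libraries are separate cultures, so the errors and p-values measure only the spread between these libraries, which may be technical.

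Mitochondria hold their own ribosomes, which make the membrane proteins of the respiratory chain and the ATP synthase that the mitochondrial genome encodes. The RNA of these ribosomes comes from the mitochondrial genome, but every protein is encoded in the nucleus, made in the cytosol and imported. Some of these proteins have homologues in bacterial ribosomes and others were added during the evolution of mitochondria. A few carry further functions, such as the stalk protein Mrpl12, the peptide release protein Mrpl58 and Mrpl45, which holds the ribosome at the inner membrane. Symbols follow an older naming, and Mrps30 and Mrps18a are in fact found in the large subunit. Mrps36 belongs to the 2-oxoglutarate dehydrogenase complex rather than to the ribosome.

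Values are RPKM, reads scaled by transcript length and sequencing depth, given for both alleles in all 4 libraries, 8 values per gene. Only reads that cover a SNP between the strains enter them. The 4 libraries held between 34120416 and 56627972 assigned reads, the fewest in replicate 4. The label of the cells was checked with marker genes. All 8 pluripotency genes were at 1 RPKM or above, with a summed level between 7698 and 9330 RPKM. Most of that sum was Dppa5a, with a mean of 7111 RPKM, while Pou5f1, Nanog and Sox2 had 29.5, 84.5 and 125 RPKM. Of 8 genes of feeder fibroblasts 5 were at 1 RPKM or above, with sums between 178 and 224 RPKM. Most of it was Col1a2, with a mean of 166 RPKM, while Lum and Fap were near 0. Of 6 primitive endoderm genes 3 were at 1 RPKM or above, with sums between 43.8 and 50.5 RPKM, most of it Dab2. The part of other cells in the results was not tested. Of the reads on 760 X-linked genes, which these male cells have from the S129 mother, between 0.112% and 0.132% were assigned to CAST.

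To show the DNA in front of these genes, 6 stretches upstream of the start are printed, chosen after the motif counts and levels were known. They come from the RefSeq promoter sequences of GRCm38.p6, which run from 250 bases before to 50 bases after a start and matched 69 of the 78 genes, and they were cut to bases outside all annotated exons. Capitals mark CCGGAAG, the core bound by ETS factors such as GABPA, a known regulator of nuclear genes for mitochondria, GCGCATG, part of the site of NRF1, another such regulator, AAGATGG, part of the site of YY1, and TATAAA, the TATA box. Both strands were searched, and GCGCATG can overlap itself on the other strand. Mrpl52, chr14:54426809-54426908 (plus strand), has the ETS core on the other strand and the YY1 letters, Mrpl43, chr19:45006443-45006542 (minus strand), has the ETS core at 2 places, and Mrpl9, chr3:94443218-94443317 (plus strand), has the NRF1 letters on both strands. Mrpl16, chr19:11770291-11770390 (plus strand), has a TATA box. Mrpl20, chr4:155802778-155802877 (plus strand), the gene with the highest level, and Mrps36, chr13:100744660-100744759 (minus strand), the gene with the largest allele difference, have none of these letters in the stretch shown.
Mrpl52: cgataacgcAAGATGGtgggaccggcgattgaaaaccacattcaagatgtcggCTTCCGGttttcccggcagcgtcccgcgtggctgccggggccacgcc
Mrpl43: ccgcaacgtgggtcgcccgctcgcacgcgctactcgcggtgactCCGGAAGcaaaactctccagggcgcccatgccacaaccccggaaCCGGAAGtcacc
Mrpl9: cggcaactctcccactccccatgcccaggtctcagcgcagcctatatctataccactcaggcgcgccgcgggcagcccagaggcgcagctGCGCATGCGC
Mrpl16: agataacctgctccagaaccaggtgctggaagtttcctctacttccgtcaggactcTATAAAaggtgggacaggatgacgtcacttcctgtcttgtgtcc
Mrpl20: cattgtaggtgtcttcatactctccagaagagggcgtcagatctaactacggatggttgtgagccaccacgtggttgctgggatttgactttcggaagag
Mrps36: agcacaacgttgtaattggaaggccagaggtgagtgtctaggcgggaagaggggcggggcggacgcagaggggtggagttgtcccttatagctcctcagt

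In the full promoter sequences, the ETS core was found for 25 of 69 mitochondrial ribosomal protein genes (36.2%). Its share was 9.12% of all 27025 promoters and 18.99% of the 8937 promoters of protein-coding genes expressed in these cells. The NRF1 letters were found for 8 genes (11.6%), against 4.04% of all and 7.73% of expressed promoters. The YY1 letters were found for 13 genes (18.8%), against 6.48% and 7.47%. The TATA box was found for 4 genes, Mrpl16, Mrpl46, Mrps17 and Mrps24 (5.80%), against 14.2% of all and 6.62% of expressed promoters. The median number of CG dinucleotides was 21 in these genes, 7 in all promoters and 21 in expressed ones. These are counts of letters in a window, and they were not tested.

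Mitochondrial ribosomal protein genes were expressed far above the typical gene. Of the 78 genes 77 had reads and 75 had at least 1 RPKM, and 30 of them (38.5%) reached 100 RPKM, a level found in 4.66% of the 20253 protein-coding genes. Their median was 65.5 ± 3.77 RPKM (SD, n = 4 libraries), beside 1.69 RPKM for all protein-coding genes and 10.2 RPKM for the protein-coding genes with at least 1 RPKM. The 81 genes of the cytosolic ribosome had a median of 1813 RPKM, 27.6-fold above that of the mitochondrial ribosome on the log2(RPKM+0.1) scale. The proteins that assemble the mitochondrial ribosome stood lower, with a median of 13.4 RPKM over 26 genes, 4.87-fold below, and the mitochondrial translation factors had 16.6 RPKM over 15 genes, 3.92-fold below. All 4 libraries showed each of these 3 differences, for which the exact sign-flip permutation test over 4 libraries gave p = 0.125, two-sided, the smallest it can give.

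The highest level was that of Mrpl20, a large-subunit protein with a bacterial homologue, with 888, 825, 821 and 1131 RPKM in replicates 1 to 4. Mrpl42, a large-subunit protein that bacteria lack, had 572, 486, 494 and 679 RPKM. Mrpl52, also specific to mitochondria, had 414, 359, 346 and 553 RPKM. Replicate 4 was highest in each of these genes, and the libraries ranked the 3 genes in the same order. Mrpl13, which has a bacterial homologue, followed with 373 ± 45.3 RPKM and Mrps18c, 1 of 3 relatives of bacterial S18, with 338 ± 54.8 RPKM. Over the first 5 places each gene was above the next in 4 of 4 libraries. The step from Mrpl52 to Mrpl13 was small, 0.15 ± 0.14 on the log2 scale, and the order of Mrpl34 and Mrpl54, which follow Mrps18c at 320 and 317 RPKM, differed between libraries.

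At the other end, Mrpl30 was listed at 0 in all 8 columns. Its neighbour Mitd1, which starts 66 bp away on the other strand, was at 0.0477 ± 0.0362 RPKM. Mrpl21, a large-subunit protein with a bacterial homologue, had 0.469, 0.420, 0.330 and 0.543 RPKM. Mrps7, a protein of the small-subunit head whose homologue begins head assembly in bacteria, had 0.729, 0.792, 0.773 and 0.817 RPKM. Mrps14 had 1.77, 1.27, 1.08 and 0.996 RPKM and Mrpl35 3.45, 3.24, 3.07 and 3.20 RPKM. These 5 genes were below all other members in every library, and Mrpl2 and Mrps26 were the 2 others under 10 RPKM. Values depend on reads over SNPs, and a gene with few SNPs has few such reads. How many SNPs these genes hold was not analysed here.

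**Figure D1:**
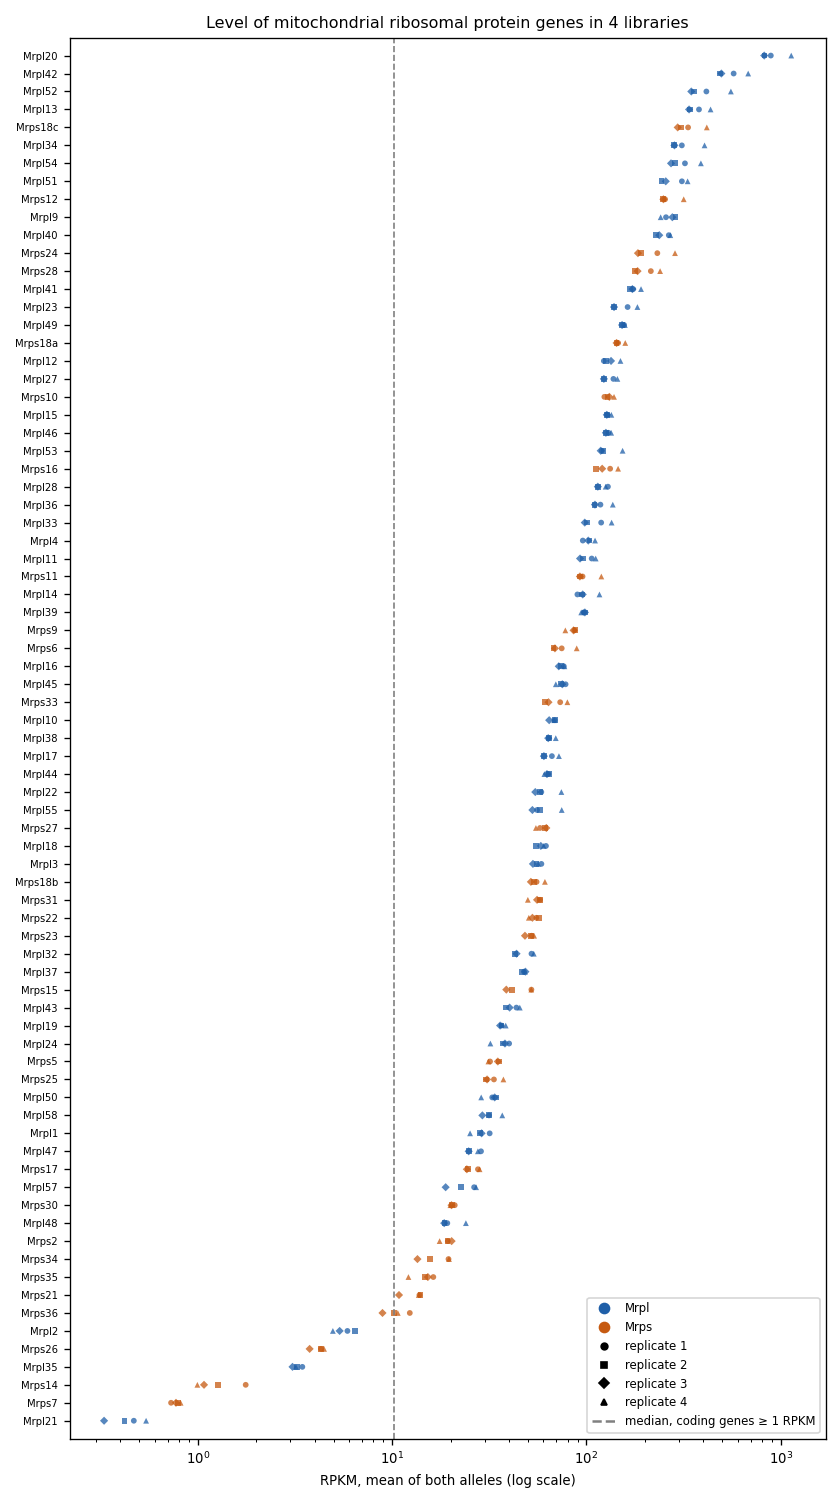
Level of each mitochondrial ribosomal protein gene with reads (77 genes, vertical axis) in the 4 libraries (symbols), as mean RPKM of both alleles on a log axis, Mrpl genes in blue and Mrps genes in orange. The dashed line is the median of protein-coding genes with at least 1 RPKM, 10.2 RPKM, and 7 of the 78 genes lie below 10 RPKM, Mrpl30 at 0 not drawn.

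By symbol, Mrpl genes had a median of 76.1 ± 1.78 RPKM and Mrps genes one of 53.2 ± 1.64 RPKM (SD, n = 4). The within-library difference of the medians was 0.52 ± 0.046 on the log2(RPKM+0.1) scale, with Mrpl genes higher in 4 of 4 libraries (exact sign-flip permutation test, two-sided, p = 0.125, the smallest possible). With Mrps30 and Mrps18a counted in the large subunit, the order differed by class. Genes with a bacterial homologue had medians of 72.0 ± 3.15 RPKM in the large subunit and 79.8 ± 2.85 RPKM in the small subunit. The small subunit was the higher of these in every library. Genes specific to mitochondria had 96.9 ± 2.06 RPKM in the large subunit and 51.7 ± 1.86 RPKM in the small subunit. The 46 genes with a bacterial homologue had a median of 73.7 ± 3.32 RPKM and the 31 specific to mitochondria one of 60.5 ± 1.95 RPKM. That difference, 0.28 ± 0.10 with 4 of 4 libraries above 0, turned to -0.40 when means of the log2 values replaced medians and to -0.036 with exon-union lengths, an alternative chosen after seeing the data. No order of these 2 classes is therefore given. The lowest genes, Mrpl30, Mrpl21, Mrps7, Mrps14 and Mrpl35, all have a bacterial homologue.

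RPKM also depends on the length by which reads are divided. For 69 of the 77 genes the RPKM steps fitted the length of the first annotated transcript, and the median length over the 77 genes was 1213 bp, against 2535 bp for the protein-coding genes with at least 1 RPKM. Dividing instead by the length of all exons together lowered the median of the mitochondrial ribosomal protein genes to 35.5 RPKM. The median of other genes on that scale is not given here, so 35.5 RPKM has no counterpart in the levels above. The ratio of the length of all exons to the length used had a median of 1.49 over the 77 genes. It was 1.48 over the protein-coding genes with at least 1 RPKM. Mrpl34, with 1 length of 607 bp under both rules, then came first with 320 RPKM and Mrpl20 second with 269 RPKM. Mrpl13 moved from place 4 to place 40, its lengths being 730 and 7936 bp, and Mrpl23 from place 15 to place 58. Levels of single genes relative to each other thus hold only for the length used.

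The libraries ranked the genes alike, with Pearson r between 0.993 and 0.999 for pairs of libraries over the genes, on 1 shared set of gene lengths. The SD over libraries of log2(RPKM+0.1) had a median of 0.124 over the 76 genes tested and of 0.138 over all 13341 genes tested. Among genes with at least 10 RPKM these medians were nearly equal, 0.125 over 71 members and 0.126 over all 5889 genes. The median over the 76 genes fell to 0.0721 without replicate 4. The value over all genes without replicate 4 is not given here, so this fall cannot be called particular to the members. Of the 76 genes 49 were highest in replicate 4, where the median deviation from a gene's own mean was 0.11, and 35 were lowest in replicate 3, where it was -0.08. All genes tested went the other way, with medians of -0.10 in replicate 4, the lowest library for 7139 of 13341 genes, and 0.08 in replicate 3. The largest spreads among members with at least 1 RPKM were those of Mrps14 (SD 0.34), Mrpl52 (0.31) and Mrps24 (0.29), a small-subunit protein with 232, 191, 184 and 286 RPKM. Mrps14 had only 9 to 45 reads per allele and library, against 3052 to 5330 for Mrpl52 and 4254 to 6554 for Mrps24. The part of read counting in the spread of Mrps14 was not tested.

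The deviation of replicate 4 was set beside transcript length. It had a median of 0.24 over the 27 mitochondrial ribosomal protein genes under 1000 bp. In the 3 longer classes, in order of length, it was 0.05 over 26 genes, 0.02 over 15 genes and 0.10 over 8 genes, so that the shortest class stood highest and there was no steady change with length. The other protein-coding genes had -0.01, -0.05, -0.13 and -0.12 in the same classes. Replicate 4 is also the library with the fewest reads. The part of length and depth in the higher values of replicate 4 was not tested.

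**Figure D2:**
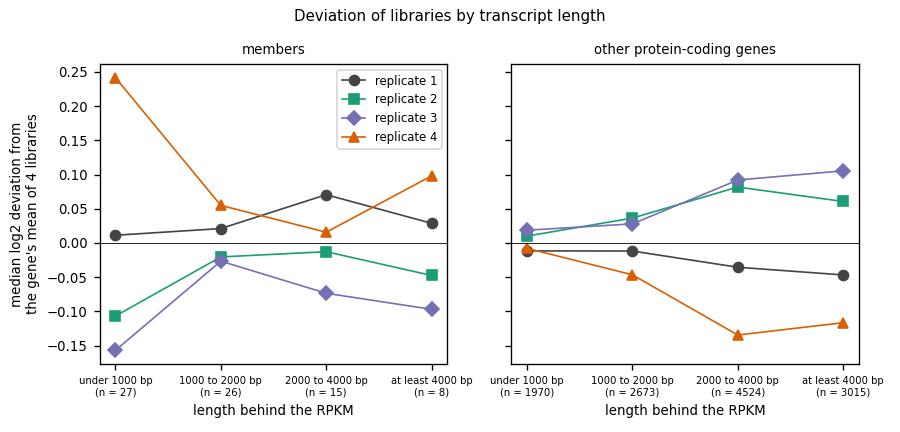
Median deviation of each library from a gene's mean over the 4 libraries, on the log2(RPKM+0.1) scale (vertical axis), by transcript length (horizontal axis, number of genes in brackets), for the mitochondrial ribosomal protein genes (members, left) and other protein-coding genes (right). In replicate 4 the short members stand at 0.24, whereas longer coding genes stand at -0.13 and -0.12.

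Both alleles of nearly all these genes were expressed, and most allele differences were small. Of the 76 genes with at least 1 RPKM for both alleles together, 20 were higher on S129 (26.3%, against 28.9% of the 12869 autosomal genes tested) and 33 were higher on CAST (43.4%, against 32.5%), by limma on within-library differences with adjusted p under 0.05, while 23 did not pass the test. If the pairing of alleles within libraries is ignored, 10 and 18 passed. At a difference of at least 1.5-fold, 3 were higher on S129 (3.95%, against 12.1%) and 9 on CAST (11.8%, against 12.8%). The median difference in either direction was 0.19 on the log2 scale, 1.14-fold, beside 0.29 or 1.23-fold over all autosomal genes. Without division by the allele's total reads the split was 25 to 28. The S129 total was the larger in every library, so this step moves genes in general toward S129. Shares over all autosomal genes without the division or without the pairing are not given here. Whether the members' surplus on CAST over those shares changed can therefore not be read from these counts. Among Mrpl genes 14 were higher on S129 and 19 on CAST, and among Mrps genes 6 and 14. The 21 large-subunit proteins specific to mitochondria had 9 higher on S129 and 8 on CAST, and the 30 large-subunit proteins with a bacterial homologue, 28 of them tested, had 5 and 13.

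**Figure D3:**
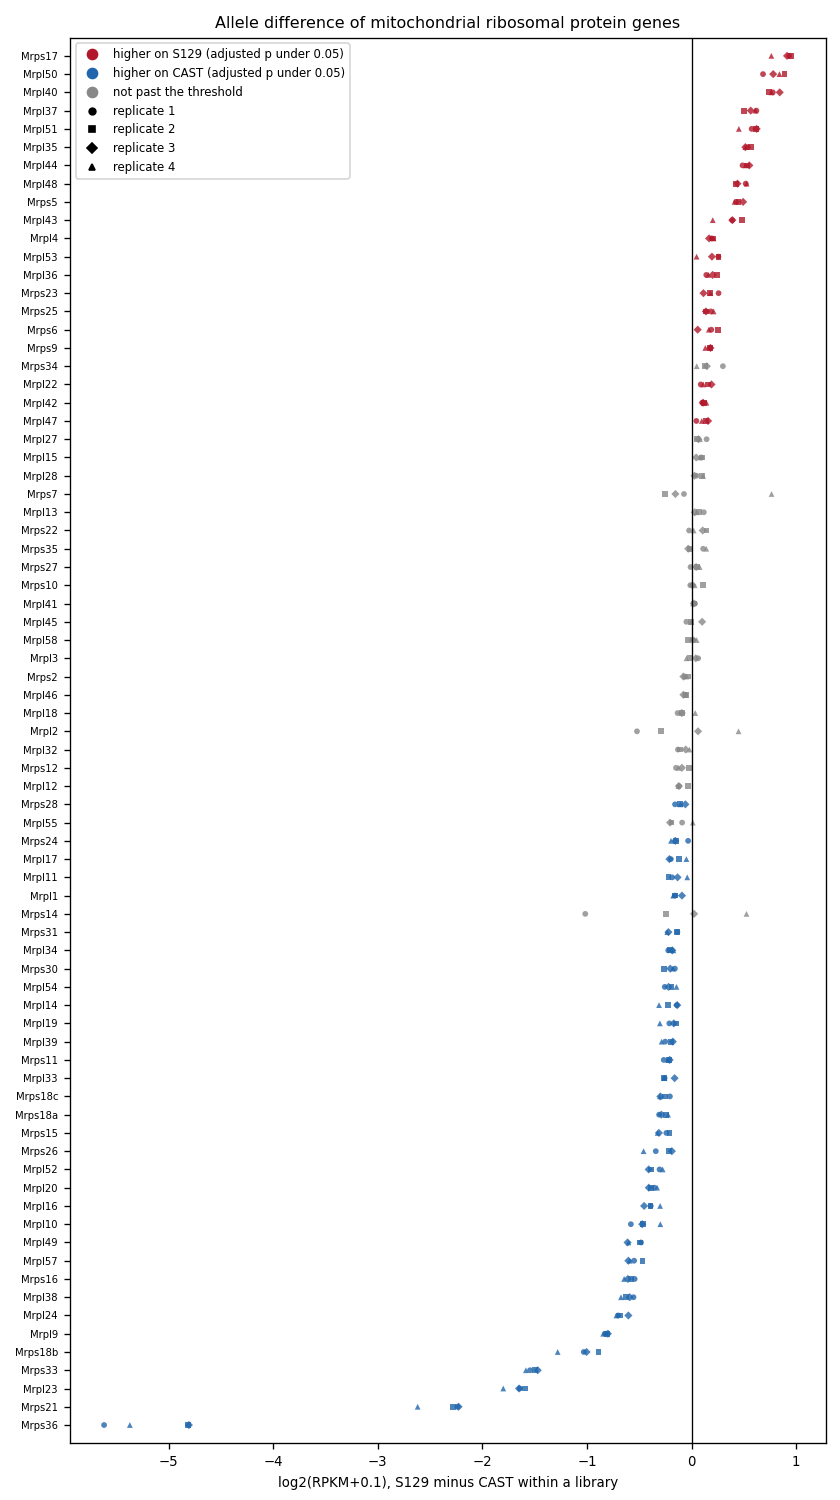
Difference between the S129 and CAST alleles of the 76 genes tested (vertical axis) in each of the 4 libraries (symbols), as log2(RPKM+0.1) of S129 minus CAST, coloured by the result of limma. Most genes lie within 1 of 0, and Mrps36 and Mrps21 lie farthest to the CAST side at means of -5.15 and -2.34.

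Mrps36, a subunit of the 2-oxoglutarate dehydrogenase complex in spite of its symbol, had few reads on the S129 allele. It lies on chromosome 13, 100735955 to 100744659 (mm10, minus strand, GENCODE M21). The S129 allele had 8, 11, 9 and 5 reads in replicates 1 to 4 and the CAST allele had 474, 344, 287 and 246 reads. In RPKM this was 0.485 ± 0.101 for S129 and 20.6 ± 2.87 for CAST, a difference of -5.15 ± 0.17 (SE) on the log2(RPKM+0.1) scale (limma, adjusted p = 4.95e-05). The alleles did not overlap in any library. Of the 50-base words of its transcript 36.2% occur in other annotated genes, most in the pseudogene Mrps36-ps1, and their part in the result was not tested.

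Mrps21, a small-subunit protein with a bacterial homologue, had 4.77, 4.71, 3.76 and 3.77 RPKM on S129 and 22.9, 23.3, 18.0 and 23.7 RPKM on CAST. CAST was 5.07-fold higher (-2.34 ± 0.08, limma, adjusted p = 5.93e-05), on 32 to 67 reads for S129. Mrpl23, a large-subunit protein at the exit of the peptide tunnel whose gene neighbours the imprinted H19 locus on chromosome 7 (142532686 to 142540747), had 79.0, 69.2, 67.0 and 81.5 RPKM on S129. Its CAST allele had 247, 209, 210 and 284 RPKM, 3.18-fold more (-1.67 ± 0.05, adjusted p = 3.14e-05 by limma). Every CAST value of Mrpl23 was above every S129 value, and 75.6% of the 50-base words of its transcript are shared with the pseudogene Mrpl23-ps1 on chromosome 2.

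Mrps33, a small-subunit protein specific to mitochondria, had 37.4, 32.1, 33.8 and 39.9 RPKM on S129 and 109, 90.7, 93.8 and 120 RPKM on CAST, which was 2.88-fold higher (-1.52 ± 0.04). Mrps18b, the small-subunit member of the S18 family that is specific to mitochondria, had 36.4, 37.8, 34.4 and 35.6 RPKM on S129 and 74.4, 70.1, 69.1 and 86.7 RPKM on CAST, 2.07-fold higher (-1.05 ± 0.07). In both genes the alleles were separate in all libraries, at adjusted p values of 1.77e-05 and 0.000449 by limma. Mrps18b shares 638 exon bases with the antisense gene Gm16279. The libraries are stranded, but whether strand was used in counting is not given in the sources used here. Mrpl38 and Mrps16 were the smallest of these differences, 1.53-fold (-0.61 ± 0.04) and 1.51-fold (-0.59 ± 0.03) higher on CAST.

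On the S129 side, Mrps17, a small-subunit protein with a bacterial homologue, had 36.3, 32.6, 31.7 and 35.5 RPKM on S129 and 18.97, 16.8, 16.8 and 20.9 RPKM on CAST. S129 was 1.85-fold higher (0.89 ± 0.05, limma, adjusted p = 0.00018). Mrpl50, a large-subunit protein specific to mitochondria, had 40.4, 44.5, 42.7 and 36.9 RPKM on S129 against 25.1, 24.0, 24.8 and 20.6 RPKM on CAST, 1.74-fold (0.80 ± 0.05). Its transcript shares no 50-base word with another gene, and the ranges of the alleles were far apart. Mrpl40, also specific to mitochondria, had 335, 286, 304 and 340 RPKM on S129 against 195, 171, 170 and 200 RPKM on CAST, 1.72-fold (0.78 ± 0.03).

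**Figure D4:**
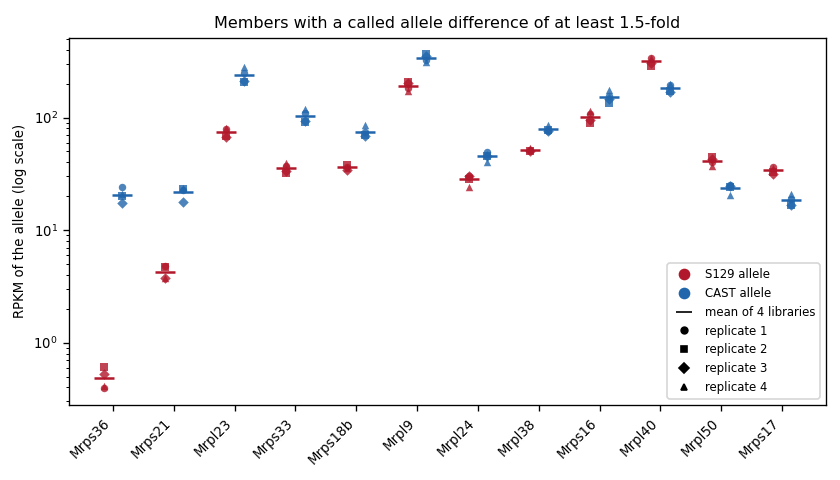
RPKM of the S129 allele (red) and the CAST allele (blue) in the 4 libraries (symbols) with their means (lines), on a log axis, for the 12 genes past the test with a difference of at least 1.5-fold. The 9 genes on the left are higher on CAST and Mrpl40, Mrpl50 and Mrps17 on the right are higher on S129, and in none of the 12 do the alleles overlap.

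Some of these differences were shared with the genes around them. For each member the median difference of the 50 nearest tested genes on its chromosome, leaving out other members, was computed. For 72 of 76 genes this median lay between -0.21 and 0.31, and for 4 it was beyond 0.5 in either direction. Mrps21, Mrpl9 and Mrpl24 on chromosome 3, at positions 95862634, 94443318 and 87919506, had local medians of -0.90, -0.95 and -0.82. Mrpl40 on chromosome 16, at position 18872018, had 0.72.

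Mrpl9, the homologue of a bacterial large-subunit protein, had 192 ± 16.5 RPKM on S129 and 339 ± 24.7 RPKM on CAST (-0.82 ± 0.03). Mrpl24, which also lines the exit of the peptide tunnel, had 28.3 ± 2.89 and 45.3 ± 4.01 RPKM (-0.68 ± 0.04). With the local median taken out both turned to the S129 side, at 0.13 and 0.15 (adjusted p = 0.0324 and 0.0279 by limma). Mrpl40 fell by the same step to 0.06 and no longer passed the test (adjusted p = 0.306). Mrps21 stayed on the CAST side at -1.44, and the differences of Mrps36, Mrpl23, Mrps33, Mrps18b, Mrps17 and Mrpl50 moved by less than 0.2. The other members on chromosome 3, Mrps28 and Mrpl47, lie at positions 8802146 and 32725397 and had local medians of 0.02 and 0.09, with differences of -0.11 and 0.11.

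**Figure D5:**
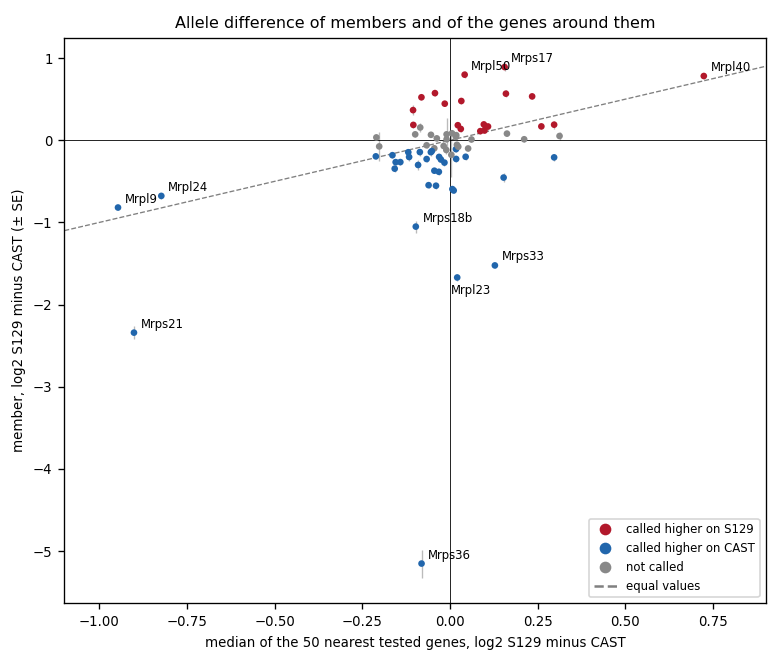
Difference of each member (vertical axis, log2 of S129 minus CAST with SE) against the median difference of its 50 nearest tested genes that are no members (horizontal axis), coloured by the result of limma, with the line of equal values dashed. Mrpl9, Mrpl24 and Mrpl40 lie near the line at local medians of -0.95, -0.82 and 0.72, and Mrps36, Mrpl23 and Mrps33 lie far below it.

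The 3 relatives of bacterial S18 differed in level and were all higher on CAST. Mrps18c, in the small subunit, had 338 ± 54.8 RPKM, Mrps18a, in the large subunit, had 147 ± 7.45 RPKM, and Mrps18b had 55.6 ± 4.01 RPKM, and their ranges over libraries did not overlap. The allele difference was -0.27 for both Mrps18a and Mrps18c and -1.05 for Mrps18b, each past the test. Of all autosomal genes tested 32.5% were higher on CAST. With the local median taken out, Mrps18a was at -0.11 and Mrps18c at -0.12, and neither passed the test (adjusted p = 0.0540 and 0.0859 by limma). Mrps18b still passed it at -0.95 (adjusted p = 0.000971 by limma). Among the members picked for their roles, Mrpl12, Mrpl58 and Mrpl45 were close to balance, while Mrpl44, Mrps30 and Mrps36 passed the test. Mrpl12 had 128 ± 10.7 RPKM on S129 and 138 ± 13.5 on CAST, Mrpl58 had 32.4 ± 3.58 and 32.1 ± 3.03, and Mrpl45 had 74.5 ± 3.66 and 74.0 ± 4.14. None of these 3 passed the test, with adjusted p of 0.0575, 0.777 and 0.807 by limma. With the local median taken out Mrpl45 was at -0.20 and Mrpl12 at -0.15, and both passed it (adjusted p = 0.00874 and 0.0231 by limma). Mrpl12 also passed it with a pseudocount of 1, a filter of 5 RPKM or a variance trend (adjusted p = 0.0482, 0.0366 and 0.00933 by limma). Under the other alternatives Mrpl12 did not pass it. Mrpl44, which has the fold of an RNase III enzyme, was 1.44-fold higher on S129 (74.0 ± 1.73 against 51.5 ± 1.39 RPKM), and Mrps30 was 1.15-fold higher on CAST.

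The study compares chromosomes that carry rRNA genes with the others. Of the 78 genes 8 (10.3%) lie on such chromosomes, against 11.7% of the protein-coding genes of the table. On chromosome 16 these are Mrpl40, Mrpl39 (96.9 ± 2.06 RPKM) and Mrps6 (75.1 ± 9.83 RPKM). On chromosome 19 they are Mrpl49 (155 ± 2.65 RPKM), Mrpl11 (102 ± 8.84), Mrpl16 (74.8 ± 2.34), Mrpl43 (42.0 ± 3.08) and Mrpl21. Of these 8, Mrpl40, Mrps6 and Mrpl43 were higher on S129, Mrpl39, Mrpl49, Mrpl11 and Mrpl16 were higher on CAST, and Mrpl21 was too low to be tested. Mrpl49 had the largest difference on CAST among them, 1.46-fold (-0.55 ± 0.04). Over all autosomal genes tested 28.9% were higher on S129 and 32.5% on CAST. With the local median taken out, Mrpl40, Mrps6 and Mrpl11 did not pass the test (adjusted p = 0.306, 0.339 and 0.137 by limma). Mrpl43, Mrpl39, Mrpl49 and Mrpl16 still passed it. Mrpl11 also did not pass it with recovered reads (adjusted p = 0.138 by limma).

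A number of these genes start close to a gene on the other strand in the annotation. Whether such neighbours share a promoter was not tested. A protein-coding neighbour that starts within 1000 bp upstream on the other strand, or overlaps by up to 100 bp, was found for 19 of 78 genes (24.4%) and for 1588 of 21951 protein-coding genes in the annotation (7.23%), a count that was not tested. The second share covers genes expressed in these cells or not, while nearly all of the 78 genes are expressed. A share over expressed genes only is not given here. In 18 of the 19 pairs both genes were tested between alleles, and in 8 both differed. Of all autosomal genes tested 28.9% were higher on S129 and 32.5% on CAST, and the pairs were not compared with other pairs of genes. In 5 of the 8 pairs both genes were higher on the same allele. Over the 18 pairs, whose genes share libraries and a chromosome region, the differences had a Pearson r of 0.17 and a Spearman rho of 0.20, given as a description. Mrpl40 and Hira, a histone chaperone 175 bp away, were both higher on S129 at 0.78 and 0.60. The 50 tested genes nearest to Mrpl40 had a median of 0.72, so this pair does not stand apart from its region. Mrpl51 and Ncapd2, a condensin subunit, were both higher on S129 at 0.57 and 0.48. Mrpl49 and Fau, which encodes a cytosolic ribosomal protein, were both higher on CAST at -0.55 and -1.29. In the other 3 pairs the alleles were opposite. Mrps18c and the helicase gene Helq, 29 bp apart, stood at -0.27 and 1.05, Mrpl10 and Lrrc46 at -0.45 and 0.93, and Mrpl37 and Cyb5rl at 0.57 and -0.44. Mrps18b differed at -1.05 while Ppp1r10, 45 bp away, had -0.05 ± 0.12 and did not pass the test. These pairs were picked as examples after their values were seen.

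Genes that work with the mitochondrial ribosome showed allele differences in both directions. Of 5 ribosomal proteins with other symbols none was higher on S129 and 2 were higher on CAST, with Gadd45gip1, a large-subunit protein, at -0.71. Of 26 assembly factors 10 were higher on S129 (38.5%, against 28.9% of autosomal genes) and 7 on CAST (26.9%, against 32.5%), led by Ngrn at 0.80 and the methyltransferase gene Mrm2 at 0.64. Of 15 translation factors 5 were higher on S129 (33.3%) and 4 on CAST (26.7%). Gfm2, which recycles ribosomes, was at 1.19 and the recycling factor Mrrf at 0.63, whereas the elongation factor Gfm1 was at -0.59 and Taco1, which acts on translation of the mitochondrial COX1 mRNA, at -0.62. The same limma fit was used. A difference of at least 1.5-fold on S129 was found in 2 assembly factors (7.69%) and 2 translation factors (13.3%), against 12.1% of autosomal genes, and on CAST in no assembly factor and 2 translation factors (13.3%), against 12.8%. With lists this short these shares are given as counts only.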

How the data were processed

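RNAseq of polyA RNA from untreated F123-ESCs (4 libraries, paired reads of 150 bp) was used. The authors removed rRNA reads, trimmed with Trimmomatic (version 0.40), aligned with STAR to mm10 masked at strain SNPs, divided reads by SNPsplit and deposited an RPKM of each allele and library. The authors also deposited the average RPKM and log10 of the average plus 1, which were not used. The counting program and annotation are not given in the sources used here. The first S129 column, numbered with a minus sign, was read as replicate 1.

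Members and lists were chosen with earlier results of these data known. Genes were matched to GENCODE M21. Reads were recovered from the RPKM steps, whole within 0.02 reads for 20134 of 20243 genes with reads. A level is the mean of both alleles. Alleles were compared by limma (version 3.58.1, R 4.3.3) with an intercept on the within-library differences of log2(RPKM+0.1), which understates differences of low genes, over all 13341 genes with at least 1 RPKM, with Benjamini-Hochberg adjustment over all of them. Both columns of a number are reads of 1 library and thus paired. Their deviations correlated at 0.105 to 0.195, against -0.155 to 0.140 for different numbers. Levels of gene groups were compared by the exact sign-flip permutation test over libraries. Scripts were tested on simulated data. Named members are the 5 highest and lowest, those past the test by at least 1.5-fold, the 3 most variable with at least 1 RPKM, the Mrps18 genes, Mrpl12, Mrpl58, Mrpl44, Mrpl45, Mrps30, Mrps36, and all on chromosome 3 or on chromosomes with rRNA genes; others were named after their values were seen. Alternatives were other pseudocounts, filters, scalings, lengths and alleles, no replicate block, a variance trend, recovered reads, and each library left out.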

Additional observations from a re-analysis of the deposited data

Results flagged for a closer look

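A single library stood apart from the other 3 by Dixon's criterion for 4 values in 4 of 75 quantities of named members, where chance flags about 1 in 20, or 3.75 of 75. The allele difference of Mrpl12 was -0.033 in replicate 2 and between -0.13 and -0.12 in the others. The level of Mrpl38 was 69.5 RPKM in replicate 4 and 63.6 to 64.2 RPKM in the others. Mrps21 was flagged for 2 quantities, its level, which was 10.9 RPKM in replicate 3 and 13.7 to 14.0 RPKM in the others, and its allele difference, which was -2.62 in replicate 4 and between -2.28 and -2.23 in the others.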

How the results depend on the processing

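Of 453 allele differences of 35 named members under the alternatives, 394 had the same sign and the same call, 50 no longer passed it, 6 newly passed it and 3 reversed. The reversed ones are Mrpl9 (0.13), Mrpl24 (0.15) and Mrpl45 (-0.20), all with the local median taken out. Without the replicate block, which ignores that both alleles come from 1 library, 10 members were higher on S129 and 18 on CAST instead of 20 and 33. Leaving out each library in turn gave 14 to 17 and 27 to 32, with fewer samples in each fit. Other settings gave 15 to 25 and 25 to 38. The shares over all autosomal genes under these settings are not set beside the counts. For the related gene lists, alternatives added after seeing the data moved no count by over 1.5 times. The median level was 70.5 RPKM on the CAST allele alone and 35.5 RPKM with exon-union lengths, and 63.7 to 66.4 RPKM with a library left out. The difference between members with a bacterial homologue and those specific to mitochondria was -0.40 as a mean over members and -0.036 with exon-union lengths, an alternative added after seeing the data. The spread between libraries was 0.0721 without replicate 4 and 0.128 to 0.134 without another library. The causes of these changes were not tested. Only reads over SNPs count, replicate 4 has the fewest reads, and intervals or errors cover neither mapping nor SNP density.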
